A study of Rattus norvegicus with 20 samples.

Results

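Gonads of embryonic rats were profiled on Affymetrix rat genome arrays while their dams were still being given vinclozolin, a dicarboximide fungicide with antiandrogenic metabolites. The comparison described here set 2 arrays of vinclozolin-exposed testes against 2 arrays of vehicle testes, all collected on embryonic day 13 (E13), and so used 4 of the 20 arrays of the series. They were chosen by their titles alone. All 4 came from Sprague-Dawley embryos. Dams of the exposed group had daily injections of vinclozolin at 100 mg/kg/day from E8 to E14, dams of the control group were injected on the same days with DMSO alone, and E13 fell before the last of these days. Day 0 was the day of a sperm-positive smear. The labels name testis cords as a second sign of sex only for the later stages, so that at E13 sex rested on a PCR for Sry in tail DNA. The titles number the arrays as biological replicates, but nothing says whether an array held RNA of 1 embryo, 1 litter or a pool. The p-values therefore measure only a spread between arrays, which may be technical. That spread was pooled over the 20 arrays of the series in 1 fit, so it is not the spread of these 4 arrays alone. The arrays of each group carry the numbers 1 and 2, and they were compared as a pair numbered 1 and a pair numbered 2. The 4 E14 arrays and the 4 E16 arrays of the same exposure were used where the difference at E13 was set against later stages.

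In the rat, the gonad of an XY embryo begins to express Sry shortly before and around E13. Sry switches on Sox9 in the supporting cells, which become Sertoli cells, make anti-Müllerian hormone (Amh) and Desert hedgehog (Dhh), and enclose the germ cells in cords from about the next day. The fetal Leydig cells, which make testosterone from cholesterol through Star, Cyp11a1, Hsd3b and Cyp17a1, differentiate after the cords. E13 lies before that step. The array values are signal intensities on a linear scale, and differences are given as vinclozolin minus vehicle in log2(intensity + 16) with the standard error (SE) of the fit and 2 arrays a group. A gene was represented by its probe set of highest mean value. A gene was said to have a measurable level at E13 when both arrays of at least 1 of the groups reached the 40th percentile of their array.

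No probe set differed between vinclozolin and vehicle testes at E13 past the threshold, an adjusted p of 0.05 in limma's moderated test with Benjamini-Hochberg adjustment over 22526 probe sets (0 of 22526, 0%). The smallest adjusted p was 1.00. At an unadjusted p under 0.05 there were 446 probe sets higher in vinclozolin testes (1.98%) and 200 lower (0.888%), 646 in all (2.87%). A fit without the pairing also called 0, with 402 at that unadjusted level (1.78%). Over the 11677 genes, 102 were higher at that level (0.874%) and 112 lower (0.959%). The median 95% interval of a probe set's difference reached 0.49 to each side on the log2 scale, which is 1.41-fold.

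The values of the 4 arrays divided by array number before they divided by treatment. Across probe sets, vehicle array 1 correlated with vinclozolin array 1 at 0.9868, above its correlation of 0.969 with the other vehicle array. Vinclozolin array 2 correlated at 0.9819 with vehicle array 2 and at 0.9752 with the other vinclozolin array. The deviations of same-numbered arrays from their group means correlated at 0.60 across probe sets. Arrays numbered 1 differed from arrays numbered 2 in 757 of 22526 probe sets in the same fit (3.36%), 626 of them higher on arrays numbered 1. Among these was Xist, the RNA that coats the inactive X chromosome and is a marker of female cells. Its intensity was 758.6 on vehicle array 1 and 896 on vinclozolin array 1, against 20.4 and 17.9 on the arrays numbered 2 (arrays numbered 1 minus 2, 4.58, limma adjusted p = 0.00204).

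The Sertoli product Amh went the other way. Its intensity was 106 and 1484.7 in vehicle testes and 372.4 and 1102.2 in vinclozolin testes, arrays 1 and 2 in that order (arrays numbered 1 minus 2, -2.57, adjusted p = 0.00597). The summed intensity of 20 Sertoli genes was 4824 and 5544 on the vehicle and vinclozolin arrays numbered 1, and 9356 and 8338 on those numbered 2. The Y-linked gene Eif2s3y, by contrast, was high on all 4 arrays, at 2363.1 and 2594.5 in vehicle and 2912.9 and 3182.4 in vinclozolin testes. Sry itself was measured at 267.9 and 133.3 in vehicle testes and at 241.9 and 231.3 in vinclozolin testes. The arrays numbered 1 therefore carried both Y-linked RNA and Xist, with less Amh, in either group. A fit without the arrays numbered 1 also called 0 probe sets at E13 (740 at an unadjusted p under 0.05), and of 204 named genes 20 changed sign in it. What sets these arrays apart was not tested. Signal at the 3' end of beta-actin RNA over signal at its 5' end, a ratio that rises as RNA is broken, was 1.98 on vehicle array 1, 2.03 on vinclozolin array 1, 2.26 on vinclozolin array 2 and 3.47 on vehicle array 2. The last was the highest of the 12 in utero arrays.

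Differences of at least 1.5-fold in the same direction in both pairs were found for 181 probe sets. Of these, 126 were higher in vinclozolin testes (0.559%) and 55 lower (0.244%), while 112 passed this size in opposite directions in the 2 pairs (0.497%). Under quantile normalization the split was 79 higher and 59 lower. The differences of the pairs correlated at 0.13 across probe sets. The 126 higher probe sets were often without a gene name (46.8%, against 26.05% of all tested), less often at a measurable level (43.7%, against 80.8%) and at least 2-fold higher on arrays numbered 1 than on those numbered 2 (34 of 126, 27.0%, against 3.37% of all). Of the 55 lower probe sets, 0 differed by 2-fold between the array numbers. By gene, 33 of 11677 were higher (0.283%) and 24 lower (0.206%), with median differences of 0.82 and -0.79. Of these, 10 and 11 had a measurable level at E13, and the others did not reach that level on both arrays of either group. Values did not overlap between the groups in 26 of the 33 and 23 of the 24. Over all 11677 genes this held for 1074 higher and 1800 lower ones (24.6% in both directions together). The 33 and 24 genes were chosen by differences on these same arrays, which favours such a gap, so these counts add no support. Stox2, at 0.588 in its smaller pair, was the higher gene nearest the limit from inside, and Actg2, at -0.583, lay just outside it.

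**Figure D1:**
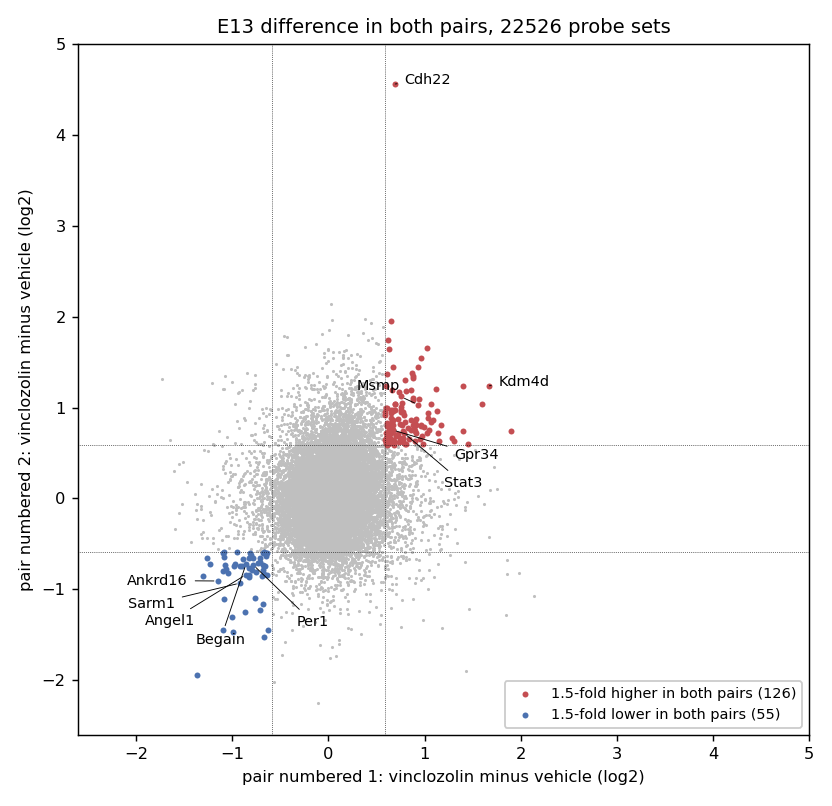
The difference between vinclozolin and vehicle testes at E13 is drawn for each of 22526 probe sets, in the pair numbered 1 on the horizontal axis and in the pair numbered 2 on the vertical axis (log2). Coloured points are the 126 probe sets at least 1.5-fold higher and the 55 at least 1.5-fold lower in both pairs, dotted lines mark 1.5-fold, and Cdh22 stands apart in the pair numbered 2 only.

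None of the genes named next passed the adjusted threshold; they are the genes of smallest unadjusted p with a measurable level and the same direction in both pairs, 12 a direction, or those of largest difference in both pairs. Msmp, a small secreted protein related to beta-microseminoprotein, had intensities of 51.8 and 55 in vehicle testes and 113.4 and 129.2 in vinclozolin testes. Both exposed arrays lay above both vehicle arrays, with differences of 0.93 and 1.03 in the pairs (0.98 ± 0.22 SE). Kdm4d, a demethylase of lysine 9 of histone H3, was at 3.4 and 7.8 in vehicle testes and at 45.9 and 40.2 in vinclozolin testes (1.46 ± 0.33 SE). The vehicle values lay far under the 40th percentile of those arrays (36.4 and 31.6), so the size of that difference depends on the added 16. Gpr34, a lysophosphatidylserine receptor known from microglia and other macrophages, went from 19.4 and 15.4 to 40.3 and 36.9 (0.71 ± 0.32 SE). Its vehicle values were also under those percentiles, and its vinclozolin values were just above those of their arrays (38.8 and 33.2). The size of its difference therefore depends on the added 16 too. Stat3, the transcription factor downstream of interleukin-6 family cytokines, was at 141.5 and 52.1 in vehicle and 255.9 and 96 in vinclozolin testes. Its pair differences of 0.79 and 0.72 were alike although the 2 arrays of each group were far apart, and its other probe set differed by 0.12.

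In a gene higher in both pairs, the lowest of the 4 arrays is always 1 of the 2 vehicle arrays. It was vehicle array 2 in 10 of the 12 higher genes of smallest p. Among the 33 genes higher by 1.5-fold in both pairs it was vehicle array 2 in 17, which is close to an even split. Cdh22, a cadherin of cell adhesion, was at 804.6 on vehicle array 1 and 35.8 on vehicle array 2, and at 1312.3 and 1205.8 in vinclozolin testes (0.69 and 4.56 in the pairs, 2.63 ± 0.73 SE). At E14 it ranged from 230.2 to 1925.4 over 4 arrays, and at E16 from 452.7 to 1270.5. Without vehicle array 1, and so without the pairing, 4 probe sets passed the threshold, all higher in vinclozolin testes. They were Cdh22 (4.62 ± 0.58 SE, limma adjusted p = 0.00879), 1 probe set each of the ubiquitin ligase Nedd4 and the splicing factor Hnrnpa2b1, and 1 with no gene name. Each was lower on vehicle array 2 than on the other 3 arrays, and Nedd4 and Hnrnpa2b1 were picked out here after their values were seen. The cell cycle gene Ccnd2, which encodes cyclin D2, had the same shape, with 1046.5 and 238.6 in vehicle and 1365.7 and 980.9 in vinclozolin testes (1.17 ± 0.40 SE). Hsd3b1, which turns pregnenolone into progesterone, was at 169.5 and 60.9 in vehicle testes and at 215.2 and 189.2 in vinclozolin testes, 0.32 and 1.42 in the pairs (0.87 ± 0.28 SE).

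Among the remaining higher genes, Rsu1, an adaptor of integrin adhesions, was at 231.7 and 223.1 in vehicle and 325.7 and 367.5 in vinclozolin testes (0.57 ± 0.19 SE), and its vehicle arrays were close together. Cdca2, which brings protein phosphatase 1 to mitotic chromatin, was at 339.9 and 326.2 against 434.2 and 521, whereas its second probe set differed by -0.03. The calcium pump gene Atp2b1 differed by 0.50 and 0.73 in the pairs. The chromatin protein genes Phf14, at 0.20 and 0.92, and Ubn2, at 0.29 and 1.35, had larger differences in the pair numbered 2. These 3 genes each had a probe set that differed by 0.10 or less. Ubn2, the centriole gene Sass6, the zinc finger gene Zbtb41 and LOC100912031 were lower on both arrays numbered 2 than on both numbered 1, so their groups overlapped. All 4 changed sign when vehicle array 2 was left out together with the pairing.

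Some of the lower genes had close pairs, and others, given further below, did not. Ankrd16, an ankyrin repeat protein, was at 64.5 and 75 in vehicle testes and at 20.2 and 32.5 in vinclozolin testes (-1.15 and -0.91 in the pairs, -1.03 ± 0.29 SE). Angel1, of the family of CCR4-like nucleases, was at 138.3 and 169.4 against 69.2 and 87.7, with -0.86 and -0.84 in the pairs (-0.85 ± 0.25 SE). Sarm1, an NAD-cleaving enzyme known from degenerating axons, was at 81.8 and 119.2 against 35.7 and 54.9 (-0.93 ± 0.29 SE). In all 3 genes both vehicle arrays lay above both exposed arrays. Per1, a repressor of the circadian clock, was at 107.6 and 84.4 in vehicle and 56 and 44.4 in vinclozolin testes (-0.76 ± 0.23 SE), and Begain, a scaffold protein known from synapses, at 57.2 and 43.8 against 24.4 and 20.2 (-0.79 ± 0.26 SE). Hsd11b2, the enzyme that inactivates glucocorticoids, was at 238.1 and 385.8 in vehicle and 165.2 and 219.3 in vinclozolin testes (-0.49 and -0.77 in the pairs, -0.63 ± 0.19 SE).

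**Figure D2:**
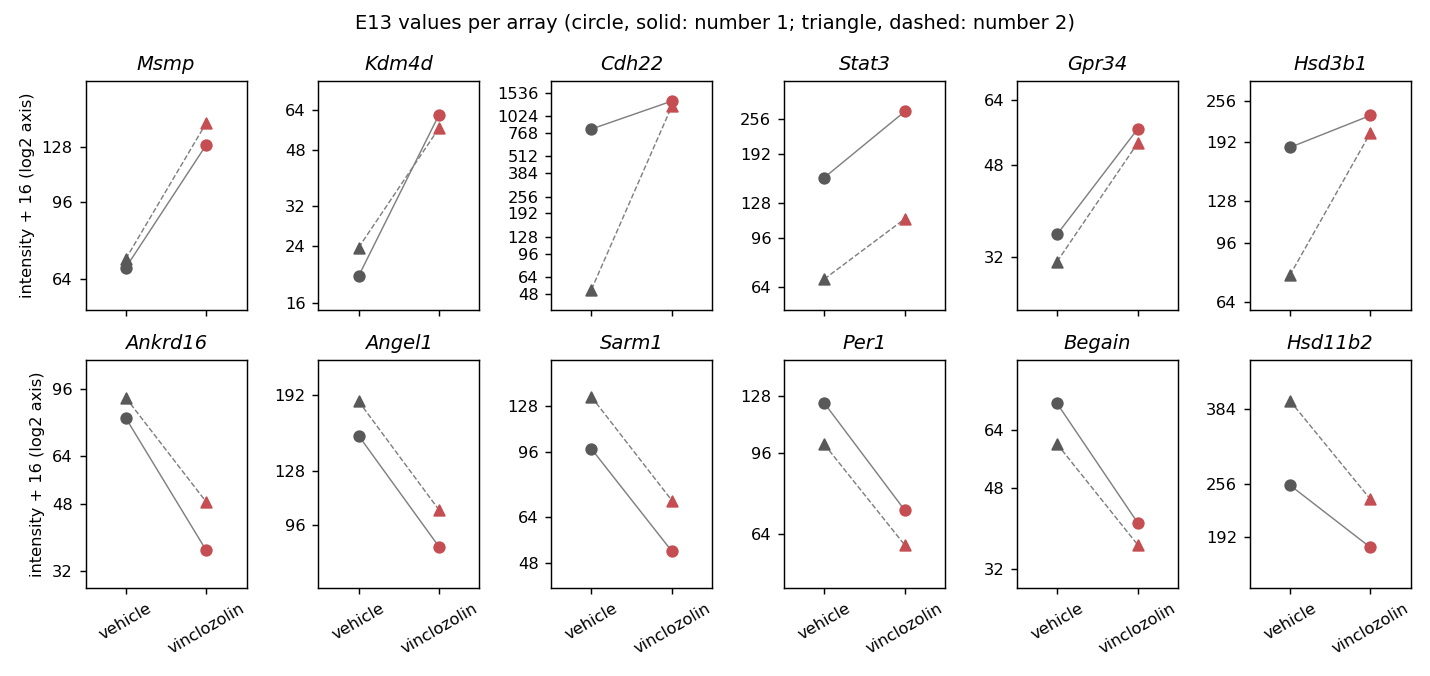
Intensity plus 16 on a log2 axis, scaled for each gene, is shown on each of the 4 E13 arrays for 12 named genes, 6 higher and 6 lower in vinclozolin testes, with lines joining the arrays of equal number. The lines run nearly parallel in Msmp, Stat3, Gpr34, Angel1, Sarm1, Per1 and Begain, whereas in Cdh22 and Hsd3b1 vehicle array 2 lies far under the other 3 arrays.

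Drosha, the nuclease that frees microRNA precursors, had 673 and 820.6 in vehicle and 533.2 and 549.9 in vinclozolin testes (-0.45 ± 0.15 SE), but its dimmer probe set differed by 0.57 in the other direction. The aldo-keto reductase Akr1b8 was at 327.4 and 641 against 258.7 and 356.1, so that its groups overlapped. The vesicle protein Vamp2 was at 193.3 and 188.9 against 154.7 and 99.8. The pairs of Akr1b8 (-0.32 and -0.82) and of Vamp2 (-0.29 and -0.82) lay apart. Pcsk4, Sfn, Rab33a and Ccdc13 completed the 12 lower genes, with no array above 79.9. Their pairs also lay apart, at -0.58 and -1.27 in Pcsk4, -1.26 and -0.44 in Sfn, -0.94 and -0.39 in Rab33a, and -1.26 and -0.66 in Ccdc13. Values of vehicle and vinclozolin testes did not overlap in 10 of the 12 lower and 7 of the 12 higher genes, against 24.6% of all genes in either direction. The 12 of each direction were chosen by their p on the same arrays, which favours such a gap.

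A stricter size, 2-fold in both pairs, was met by 10 probe sets, 6 higher and 4 lower. Besides Kdm4d, those with a measurable level were 1 probe set each of Thoc2, a subunit of the mRNA export complex, and of Nckap5l and Smoc2, all picked out after their values were seen. The smallest unadjusted p of all probe sets belonged to Nckap5l, at 214.9 and 181.9 in vehicle and 73.5 and 35.3 in vinclozolin testes (-1.66 ± 0.32 SE). The brighter probe set of Nckap5l differed by -0.33, that of Smoc2 by -0.40, and the 3 other probe sets of Thoc2 by 0.12 to 0.21. The guanine deaminase gene Gda was higher in both of its probe sets (1.32 and 1.19), from intensities of 2.4 to 7.4 in vehicle testes to 24.8 to 47.9 in vinclozolin testes, all but 2 of these under the 40th percentile of the array.

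Genes of the androgen pathway were examined through lists drawn from textbook knowledge. No gene of any of the 46 lists passed the threshold (0 of all 11677 genes, 0%). Of 16 measured cofactors, chaperones and coregulators of steroid receptors, 2 were higher and 6 lower in both pairs, against 22.7% and 32.2% of all genes, with a median difference of -0.04 (all genes, -0.02). Their differences ran from -0.24 to 0.08, a narrow range. Fkbp4, a co-chaperone of steroid receptors, was at 1030.3 and 1116.5 in vehicle and 924.9 and 910.5 in vinclozolin testes (-0.22 ± 0.21 SE). Fkbp5, both a chaperone and a classical androgen target, was at 521.3 and 735.1 against 502.3 and 589.5 (-0.18 ± 0.18 SE). Of 19 genes known to respond to androgen in other tissues, 5 were higher and 6 lower in both pairs, with a median of 0.02. The testis factor Sox9 had no probe set named for it in the annotation used and is not analysed here.

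Of 16 Leydig and steroidogenic genes, 9 had a measurable level. Cyp11a1 had 24.6 and 19.6 in vehicle and 23.3 and 26.6 in vinclozolin testes, Cyp17a1 lay between 1.7 and 16.6 and the Leydig cell hormone Insl3 between 1.9 and 24.7 on the 4 arrays, all under the 40th percentile of their arrays. Star, which carries cholesterol into the mitochondrion, was at 91.8 and 78.6 against 83.7 and 106 (0.13, 95% interval -0.37 to 0.63). Its second probe set differed by 0.02. Over the 16 genes, 3 were higher and 2 lower in both pairs (median 0.08), and Hsd3b1 above had the largest difference.

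Genes of the supporting cells gave no common direction. Of 20 Sertoli genes, 5 were higher and 3 lower in both pairs, and the list's median was 0.14 in the pair numbered 1 and -0.16 in the pair numbered 2. Amh differed by 1.67 in the first pair and -0.42 in the second (0.62, 95% interval -0.30 to 1.55). Dhh was at 56.3 and 165.8 in vehicle and 56.9 and 111.3 in vinclozolin testes (-0.25 ± 0.33 SE). Inha, the inhibin alpha subunit, was at 290.6 and 428.1 against 200.5 and 294.8, with -0.50 and -0.51 in the pairs (-0.51 ± 0.36 SE), and its groups overlapped. Of 21 transcription factors and signals that found the gonad, 12 were lower and 2 higher in both pairs (median -0.10). Wt1 was the steadiest of those always reported, at 3500.1 and 3270.5 against 3534.2 and 3250.7 (0.00, 95% interval -0.27 to 0.28), though its second probe set differed by 0.27. Nr5a1, the steroidogenic factor, was at 449.1 and 668.5 against 418.8 and 479.4 (-0.28 ± 0.27 SE), with 0.12 in its dimmer probe set, and Lhx9 at 1935.4 and 1886.3 against 1661 and 1509.6 (-0.27 ± 0.20 SE). Of 26 genes of transforming growth factor beta, activin and bone morphogenetic protein signalling, 6 were higher and 4 lower in both pairs (median 0.07). The lowest of them was the activin receptor Acvr2b, at 692 and 622.1 against 513.7 and 397.9, without overlap (-0.52 ± 0.19 SE).

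Contractile genes of smooth muscle, which in the testis mark the peritubular cells and at this stage may also come from vessels or the mesonephros, lay lowest of the lists. Of 12 tested, 10 had a measurable level, and 9 of the 12 were lower and 1 higher in both pairs. Their median was -0.24, with pair medians of -0.28 and -0.28. Actg2 was at 92.7 and 49.3 in vehicle and 49.2 and 27.6 in vinclozolin testes (-0.66 ± 0.24 SE), Tagln at 408.9 and 232.7 against 241.7 and 194.3 (-0.48 ± 0.21 SE), and Tpm2 at 367.5 and 259.5 against 285 and 204.9 (-0.33 ± 0.17 SE). The groups of Tagln and of Tpm2 overlapped, and the dimmer probe set of Tpm2 differed by -0.12. Cnn1, at 34.2 and 30.2 against 19 and 17.8, lacked a measurable level. In bulk RNA, fewer cells of a type and less RNA per cell cannot be told apart. The summed intensity of the 12 genes was 8285 and 8387 in vehicle and 8065 and 7643 in vinclozolin testes.

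**Figure D3:**
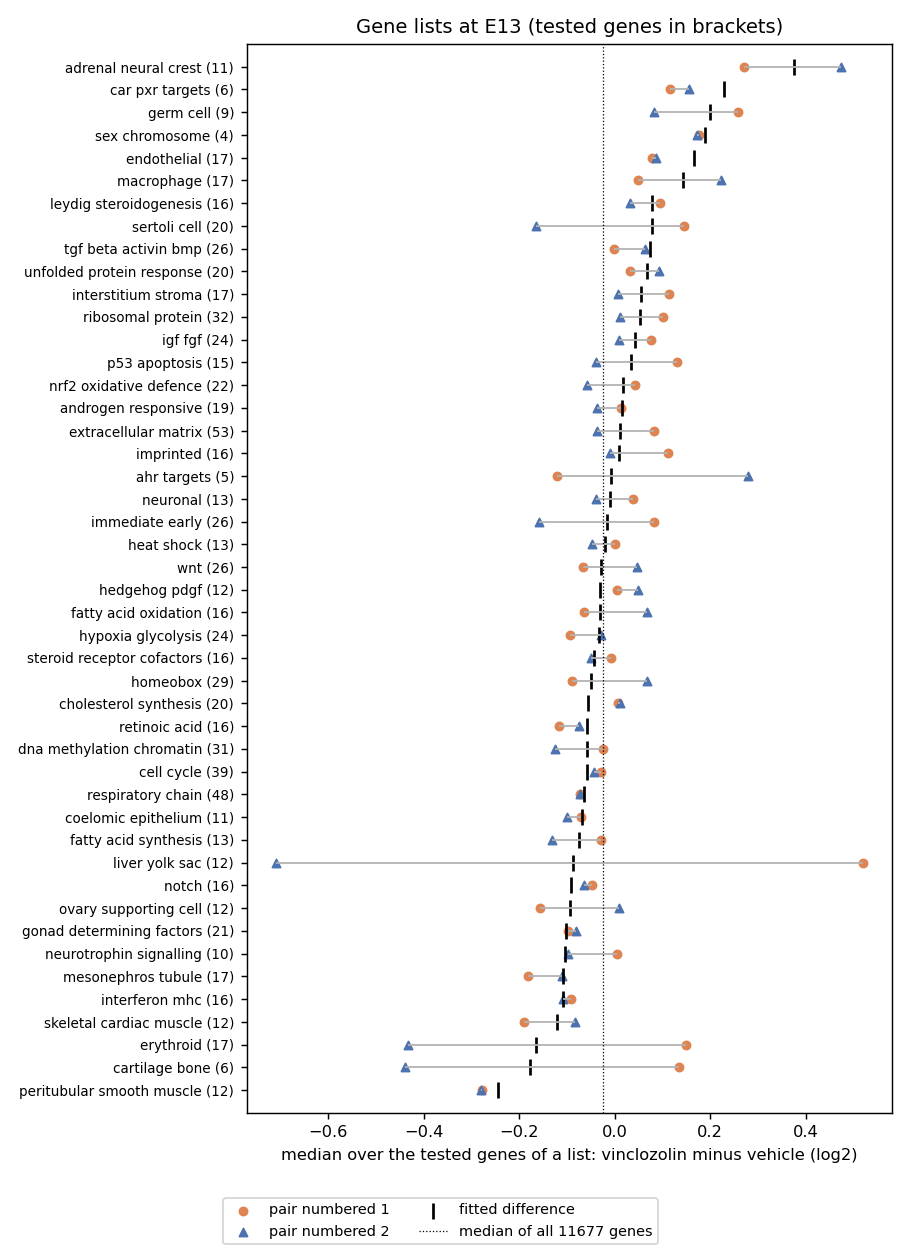
For each of 46 gene lists, the median difference between vinclozolin and vehicle testes at E13 is shown in the pair numbered 1 (circles) and the pair numbered 2 (triangles), with the fitted value as a bar (log2); the dotted line is the median of all 11677 genes. The smooth muscle list lies lowest with both pairs together, the adrenal and neural crest list highest, and the liver, erythroid, cartilage and Sertoli lists are among those that lie on opposite sides of 0 in the 2 pairs.

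At the other end were genes of the sympathetic and adrenal lineage, which lies beside the gonad. Of 11 tested, 8 had a measurable level, and 6 of the 11 were higher and 1 lower in both pairs (median 0.38, and 0.27 and 0.47 in the pairs). Chgb, a protein of secretory granules, was at 106.9 and 91.6 in vehicle and 147.1 and 149.5 in vinclozolin testes (0.51 ± 0.21 SE), and Dbh, which makes noradrenaline, at 39.7 and 57.2 against 63.8 and 106 (0.63 ± 0.30 SE). Hand2 of the same list had the lowest difference, at 175 and 128.2 against 93.6 and 131 (-0.39 ± 0.24 SE). Its pairs disagreed, at -0.80 and 0.03. Of 17 macrophage genes, 10 were higher and 0 lower in both pairs, by a median of 0.14 (0.05 and 0.22 in the pairs), with the complement gene C1qb at 127.9 and 77.7 against 145.1 and 125.4 (0.38 ± 0.22 SE). Of 17 endothelial genes, 9 were higher and 3 lower in both pairs (median 0.17, and 0.08 and 0.09 in the pairs), with Kdr, a receptor for vascular endothelial growth factor, at 610.9 and 556.6 against 770.5 and 651.6 (0.27 ± 0.15 SE). Of 9 germ cell genes, 5 were higher and 3 lower (median 0.20, and 0.26 and 0.08 in the pairs). Elavl2 had the smallest p of these, at 252.9 and 91.6 against 305.8 and 170.1 (0.52 ± 0.21 SE), but its groups overlapped and its other probe sets differed by 0.06 and -0.12.

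Some lists lay on opposite sides of 0 in the 2 pairs. The liver and yolk sac list had a median of 0.52 in the first pair and -0.71 in the second; its gene Afp was at 96.3 and 260.5 in vehicle and 477.7 and 115.2 in vinclozolin testes. The erythroid list had 0.15 and -0.43, with the globin gene Hbb at 431.9 and 3839.9 against 568 and 2058.6. Neither Afp nor Hbb was high or low in 1 group on both arrays. Of the 12 liver genes, only 3 had a measurable level, and the medians above include the others. In both pairs 4 of the 12 were lower and 0 higher. Among the lower ones was Apoc3, an apolipoprotein without a measurable level, at 34.7 and 38.4 against 8 and 16.7.

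Differences over the housekeeping lists were small. Of 48 subunits of the respiratory chain, 28 were lower and 3 higher in both pairs, by a median of -0.07 in each pair. Uqcrc1, of complex III, had the smallest p of them, at 2365.4 and 2684.6 in vehicle and 1963.7 and 2055 in vinclozolin testes (-0.32 ± 0.16 SE). Of 32 ribosomal protein genes, 15 were higher and 0 lower in both pairs, by a median of 0.05. Of 31 genes of DNA methylation and chromatin, 14 were lower and 6 higher (median -0.06). Smarca4, the chromatin remodelling ATPase, was at 1652.9 and 2044.1 against 1458.9 and 1442.7 (-0.34 ± 0.18 SE), and its other probe sets differed by 0.21 and -0.32. Of 20 genes of cholesterol synthesis, 7 were higher and 7 lower, with their regulator Srebf2 at 325.9 and 415.5 against 279.8 and 271.4 (-0.40 ± 0.17 SE). Of 24 genes of insulin-like and fibroblast growth factor signalling, 9 were higher and 6 lower in both pairs (median 0.04). The one of smallest p, the binding protein gene Igfbp4, was lower, at 476 and 426 against 404.3 and 270.4 (-0.43 ± 0.15 SE). Targets of the aryl hydrocarbon receptor and of the pregnane and constitutive androstane receptors, which respond to many foreign compounds, were few on the filtered array, and 3 of 5 and 2 of 6 had a measurable level. Of the 6 latter, 2 were higher and 1 lower in both pairs (median 0.23, and 0.12 and 0.16 in the pairs). Of the 5 former, 1 was higher and 2 lower in both pairs (median -0.01). The higher one, Tiparp, was at 401.5 and 427.9 in vehicle and 475.2 and 537.9 in vinclozolin testes (0.28 ± 0.17 SE), with a second probe set at 1.06 ± 0.28 SE (128.4 and 34.5 against 214.3 and 122), in which vehicle array 2 was the lowest.

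The same exposure could be compared at E14, the last day of injection, and at E16. The difference at E13 minus that at E14 passed the threshold in 0 of 22526 probe sets (0%), with 1780 at an unadjusted p under 0.05 (7.9%). The difference at E13 minus that at E16 also passed in 0 (0%), with 839 unadjusted (3.72%). Chgb came nearest, with 0.51 ± 0.21 SE at E13 and -1.57 ± 0.21 SE at E14 (limma adjusted p of the stage difference = 0.0921). Its E14 intensities were 186.6 and 39.1 in vehicle and 42.8 and 5.4 in vinclozolin testes, so that the groups overlapped and vehicle array 1 was the highest. Msmp was nearest against E16, with 0.98 ± 0.22 SE at E13 and -1.06 ± 0.22 SE at E16 (limma adjusted p = 0.328). At E14, 3 probe sets passed the threshold (0.0133%), among them Chgb (limma adjusted p = 0.0353), and at E16 1 passed (0.00444%). Of the 13 lower genes named from both rules, 12 had values above 0 at E14, against 51.9% of all genes, the other being Begain at -0.34. At E16, 10 of the 13 lay above 0, against 47.7% of all genes. Ankrd16, for example, differed by 0.55 ± 0.29 SE at E14, and Per1 by 0.22 ± 0.23 SE. Of the 14 higher genes, 13 had values below 0 at E14, against 48.1% of all genes, the other being Msmp at 0.32. At E16, 4 of the 14 lay below 0, against 52.3% of all genes. Both sets were picked by their E13 values, and their values at the later stages were not tested as sets.

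Of the 33 genes higher by 1.5-fold in both pairs at E13, 11 were higher at E14 and 25 at E16, against 51.9% and 47.7% of all genes. Of the 24 lower, 9 were lower at E14 and 8 at E16, against 48.1% and 52.3%. Tagln had fitted values of the same sign and similar size at each stage, with -0.48 at E13, -0.50 at E14 and -0.50 at E16, each ± 0.21 SE, none past the threshold. Its groups overlapped at E13 and E14, and not at E16. At E14 it was at 273.6 and 115.1 in vehicle and 145 and 101.4 in vinclozolin testes, so vehicle array 1 was the highest. The 12 smooth muscle genes together had medians of -0.24, -0.06 and -0.19 at the 3 stages. Hsd11b2 differed by -0.63 at E13, 0.13 at E14 and -0.57 at E16. The adrenal and neural crest list had medians of 0.38 at E13 and -0.40 at E14, and the macrophage list of 0.14 and -0.51; these stage differences of lists were not tested. E14 vehicle array 1 was the highest of the 4 E14 arrays in Chgb, Dbh and the macrophage genes C1qb, Cd53, Laptm5 and Lyz2, with Dbh (129.6, against 24 to 45.7 on the others) and C1qb (317.1, against 112.4 to 168) as examples, and its part in the medians was not tested.

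**Figure D4:**
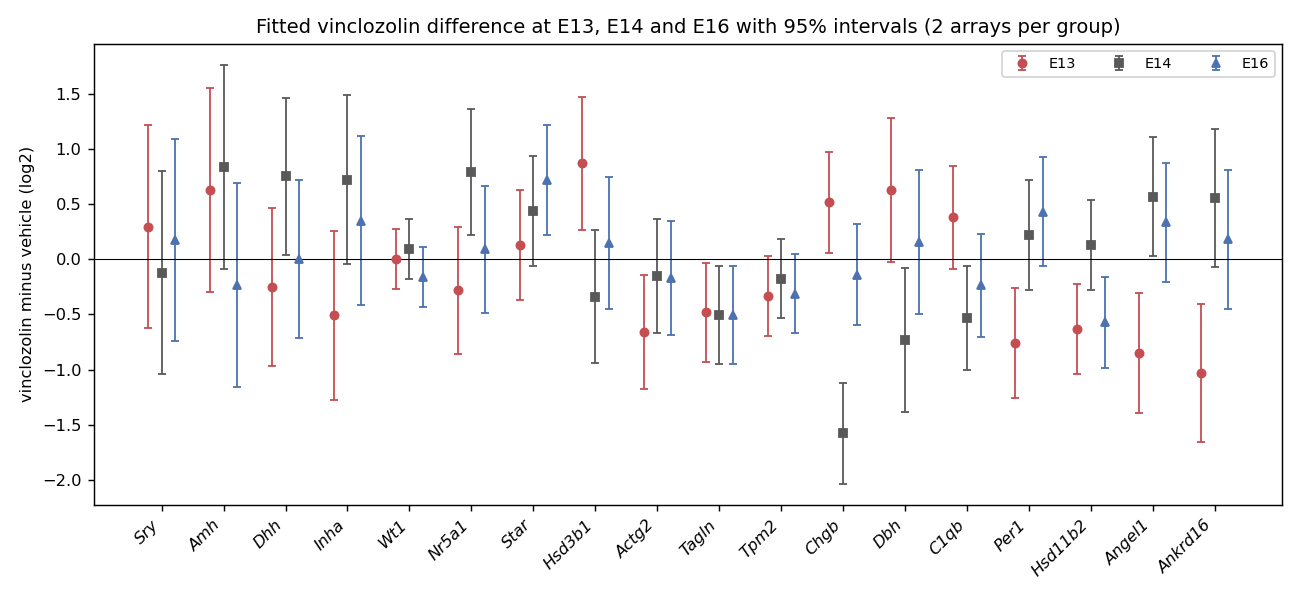
The fitted difference between vinclozolin and vehicle testes is shown for 18 genes at E13 (circles), E14 (squares) and E16 (triangles), in log2(intensity + 16), with 95% intervals from the fit and 2 arrays in each group. The intervals of Sry, Amh and Wt1 include 0 at all 3 stages, Tagln lies near -0.50 at each, and Chgb lies above 0 at E13 and below it at E14.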

How the data were processed

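RNA of embryonic gonads was labelled with biotin and hybridised to Affymetrix rat genome arrays, per the labels' protocols. The authors deposited linear signal intensity from MAS5 (with GCOS for the cultures), per the submitters' processing notes, with versions not given in the sources used here. A trimmed mean of 210.1, with 2% left out at each end, was the same on the 12 in utero arrays, so no further scaling was applied.

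Of 31099 probe sets, 57 controls were left out, and 22526 that reached the 40th percentile of their array on at least 2 of 20 arrays were tested. Symbols came from the platform annotation, and a comparison with RefSeq symbols through gene identifiers changed 0 of them. A single symbol was found for 16292 tested probe sets, several for 366 and none for 5868.

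Values were taken as log2(intensity + 16) and fitted with limma 3.58.1 in R 4.3.3 (variance trend, two-sided moderated tests). All 20 arrays entered 1 fit with 1 mean per group, so that groups share the spread (5 residual and 8.56 prior degrees of freedom), and with the array number as a block within each set of 4 arrays, 5 terms. Same-numbered arrays correlated at 0.60 in their deviations at E13. The numbers come from the sample titles, which do not say what they mark. The script was tested on simulated data.

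The named genes were, in each direction, the 12 of smallest unadjusted p with the same sign in both pairs and a measurable level, since 0 passed the threshold, the 5 of largest difference in both pairs, 13 genes of gonad and sex, and up to 4 members of smallest p of each of 46 lists. The comparison, the lists and the rule were chosen with earlier results of these data known, and lists are described without a test. The alternatives were no block, fewer arrays in the fit, quantile normalization, pseudocounts of 1 and 64, other filters, no trend, arrays left out and the probe set of largest variance. Detection calls and image files were not analysed here.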

Additional observations from a re-analysis of the deposited data

How the results depend on the processing

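With 2 arrays a group, the median 95% half-width was 1.41-fold. The count of 0 changed probe sets at E13 held under every alternative fit that kept the 4 E13 arrays, with a smallest adjusted p in limma of 0.204, from the 4 arrays alone, to 1. Leaving out arrays gave 0 to 4 changed probe sets at E13, 0 to 6 for E13 minus E14 (6 without vehicle array 1) and 0 to 1 for E13 minus E16 (1 without both arrays numbered 1 and 1 without both numbered 2). Without the replicate block, 0 probe sets passed and 402 had an unadjusted p under 0.05, against 646 with it. Counting an unadjusted p under 0.05 together with 1.5-fold in both pairs gave 139 probe sets. The 181 probe sets at 1.5-fold in both pairs became 572 with a pseudocount of 1 and 8 with 64, 326 with no filter, 97 with a filter at the median, 88 with a filter on the E13 arrays, and 10 at 2-fold. Of 204 named genes, at most 1 changed sign under any alternative that kept all 4 arrays and the probe set, 11 with the probe set of largest variance, and 14 to 34 when an array or a pair was left out; none of these genes was past the threshold in the fit reported.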
